A study of Mus musculus with 12 samples.

Results

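Non-coding transcripts of the hippocampus were compared with those of the cerebral cortex in 5 × FAD mice. The comparison used 6 of the 12 libraries of the series, 3 from the hippocampus and 3 from the cortex, and the members were chosen by region and genotype as the library labels give them. The 5 × FAD mice carried mutated human APP and PS1 transgenes (5 familial Alzheimer's disease mutations in all) on the C57BL/6J background, and the transgenes of this line are driven by neuronal Thy1 regulatory elements. The other 6 libraries were the same 2 regions of non-transgenic WT mice of the same strain, and all mice were aged 7 months. Both regions were taken from each mouse, so the 3 hippocampus and 3 cortex libraries share animals, and no other treatment separates the groups. After rows on chromosomes X and Y were dropped, the table held 45663 transcript rows, which were summed into 20971 genes or assembled loci.

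Long non-coding RNAs (lncRNAs) are transcripts without a long reading frame, and many of them are restricted to a tissue or cell type more tightly than mRNAs are. In the forebrain, the hippocampus is built of dentate granule cells and pyramidal neurons, the cortex of layered projection neurons, and both hold interneurons and glia. Several lncRNA genes lie opposite or beside the transcription factor genes that pattern these regions, such as Prox1 in granule cells and Emx2 in the medial pallium.

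The sequences across the first exon junction of 5 lncRNA transcripts are shown because these transcripts carry the regional values described later, the first 4 higher in the hippocampus and the last higher in the cortex. Each is written 5′ to 3′ from the GENCODE M21 transcripts of GRCm38, with the 10 bases on each side of the junction in capitals. Prox1os joined chr1:190170379-190170428 to chr1:190216582-190216631 on the plus strand over an intron of 46153 bases.
2310002F09Rik: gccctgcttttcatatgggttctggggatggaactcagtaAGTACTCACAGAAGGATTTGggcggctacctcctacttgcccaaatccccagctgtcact
6330420H09Rik: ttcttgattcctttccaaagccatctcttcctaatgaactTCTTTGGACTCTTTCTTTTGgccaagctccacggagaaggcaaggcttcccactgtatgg
Prox1os: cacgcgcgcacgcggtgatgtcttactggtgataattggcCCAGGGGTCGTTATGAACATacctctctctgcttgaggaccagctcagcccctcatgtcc
Emx2os: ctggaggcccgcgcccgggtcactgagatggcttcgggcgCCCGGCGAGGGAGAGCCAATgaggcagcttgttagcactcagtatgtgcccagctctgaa
Gm12371: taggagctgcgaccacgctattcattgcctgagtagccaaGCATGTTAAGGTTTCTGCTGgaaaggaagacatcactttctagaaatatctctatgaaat
The 2310002F09Rik bases came from chr7:43748651-43748700 and chr7:43747741-43747790 on the minus strand, and those of 6330420H09Rik from chr7:135854141-135854190 and chr7:135854904-135854953 on the plus strand. The Emx2os bases came from chr19:59458101-59458150 and chr19:59432983-59433032 on the minus strand. On the plus strand, Gm12371 was read from chr4:36953081-36953130 and chr4:36987107-36987156. The introns spliced out were 860 bases in the 2310002F09Rik transcript and 713 bases in 6330420H09Rik, against 25068 in Emx2os and 33976 in Gm12371.

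The counts outside X and Y ranged from 3866426 to 4304412 in the 5 × FAD hippocampus libraries and from 3595880 to 4335156 in the 5 × FAD cortex libraries. By transcript type, 18504 of the rows were retained introns, 13501 processed transcripts, 6200 lincRNAs and 3898 antisense transcripts, and 222 were coding. A sum for a protein-coding gene is therefore a sum of its non-coding isoforms, and whether reads of the mRNA were counted in these isoforms is not stated. Whether counting used strand is not stated either, so an antisense transcript could not be told apart from its partner where they overlap. In each region 2 of the 3 5 × FAD libraries held over 1000 Xist counts and the library numbered 3 held Y-linked counts in their place, whereas all 6 WT libraries held Y-linked counts, which goes against the 2 females and 1 male given for each group.

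Of 11126 gene or locus sums with enough counts to test, 22 (0.198%) differed between hippocampus and cortex in 5 × FAD mice at an adjusted p under 0.05 (edgeR quasi-likelihood test, Benjamini-Hochberg adjustment). The hippocampus was higher in 11 and the cortex in 11, and 6 were annotated genes and 16 were assembled loci, transcript models without an annotated gene. At an unadjusted p under 0.05 the hippocampus was higher in 692 sums (6.22%) and the cortex in 713 (6.41%). All 3 libraries of one region lay above all 3 of the other in 1052 sums for the hippocampus (9.46%) and in 1095 for the cortex (9.84%). The count of calls depended on the tool and on the libraries fitted. DESeq2 called 337 of the same sums (3.03%), 162 higher in the hippocampus and 175 in the cortex, and a single edgeR fit of all 12 libraries called 265 of 11805 (2.24%), 139 and 126. The 22 were among the calls of both. The fit treated the libraries as independent although the regions share mice, and with the library number as a replicate block edgeR called 0 of the 22 and 0 sums in all, each of the 22 keeping its direction. Without hippocampus library 1, 2 or 3 the count of calls was 8, 1 and 6, of which 3, 0 and 2 were among the 22. Without cortex library 1, 2 or 3 it was 1, 0 and 1, of which 1, 0 and 0 were among the 22.

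A single annotated lncRNA gene was called. 2310002F09Rik, on the minus strand of chr7:43695209-43797958, had 53, 87 and 110 counts in the 3 hippocampus libraries and 11, 8 and 8 in the cortex. The groups were far apart, at 20.9 ± 7.19 normalised CPM (counts scaled to a common library size) in the hippocampus and 2.21 ± 0.321 in the cortex (mean ± SD, n = 3 each), a 9.46-fold difference in CPM. The log2 fold change was 3.22 with a standard error (SE) of 0.37 (edgeR adjusted p = 0.0362). Its 2-exon antisense transcript, whose junction is shown above, held 30, 61 and 70 counts in the hippocampus and 8, 6 and 7 in the cortex, and a 7-exon one held 20, 11 and 28 against 3, 0 and 1. Both transcripts were higher in every hippocampus library than in any cortex library. In WT mice the gene stood at 133, 138 and 131 counts in the hippocampus and 8, 18 and 16 in the cortex.

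Among the non-coding isoforms of protein-coding genes, 3 sums rose in the 5 × FAD hippocampus. Sema3e, a secreted semaphorin that guides axons, had 505, 568 and 184 counts in the hippocampus and 28, 15 and 22 in the cortex. Hippocampus library 3 was well below the other two yet above all cortex libraries, and the means were 104 ± 49.9 and 5.25 ± 1.15 CPM (log2 fold change 4.30, SE 0.47, edgeR adjusted p = 0.0337). Tspan18, a tetraspanin, had 109, 162 and 144 counts against 7, 16 and 19, a 9.87-fold difference in CPM (log2 fold change 3.30, SE 0.40, edgeR adjusted p = 0.0397). Zbtb20 encodes a zinc finger factor needed for the identity of hippocampal pyramidal neurons. Its 424, 479 and 450 counts in the hippocampus varied little and stood against 176, 180 and 189 in the cortex (log2 fold change 1.33, SE 0.17, edgeR adjusted p = 0.0452).

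The Zbtb20 difference was not shared evenly by its transcripts. A retained intron transcript of 2063 bases (chr16:43363464-43578751) had 142, 132 and 125 counts in the hippocampus and 55, 55 and 48 in the cortex. Another processed transcript (chr16:42907392-43072468) had 16, 17 and 22 against 19, 17 and 33, with overlapping groups. Of the Zbtb20 transcripts tested singly, none passed the adjusted threshold.

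Both annotated genes called higher in the cortex were read through retained introns or a processed transcript. Oprk1, the kappa opioid receptor, had 8, 19 and 12 counts in the hippocampus and 161, 99 and 117 in the cortex, 3.22 ± 1.25 against 30.6 ± 5.51 CPM (log2 fold change -3.23, SE 0.34, edgeR adjusted p = 0.0337). Its retained intron transcripts lay at chr1:5596518-5603153 and chr1:5588466-5591311, and in both every cortex library was above every hippocampus library. Filip1, a filamin A interacting protein, was measured by 1 processed transcript (chr9:79815057-79830998, minus strand) with 0 counts in all 3 hippocampus libraries and 86, 155 and 115 in the cortex. Against the level that 3 counts would give in the hippocampus library with the highest such floor (0.776 CPM), Filip1 was at least 38.5-fold higher in the cortex. In WT mice it had 0 counts in the 3 hippocampus libraries and 2, 2 and 0 in the cortex.

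**Figure D1:**
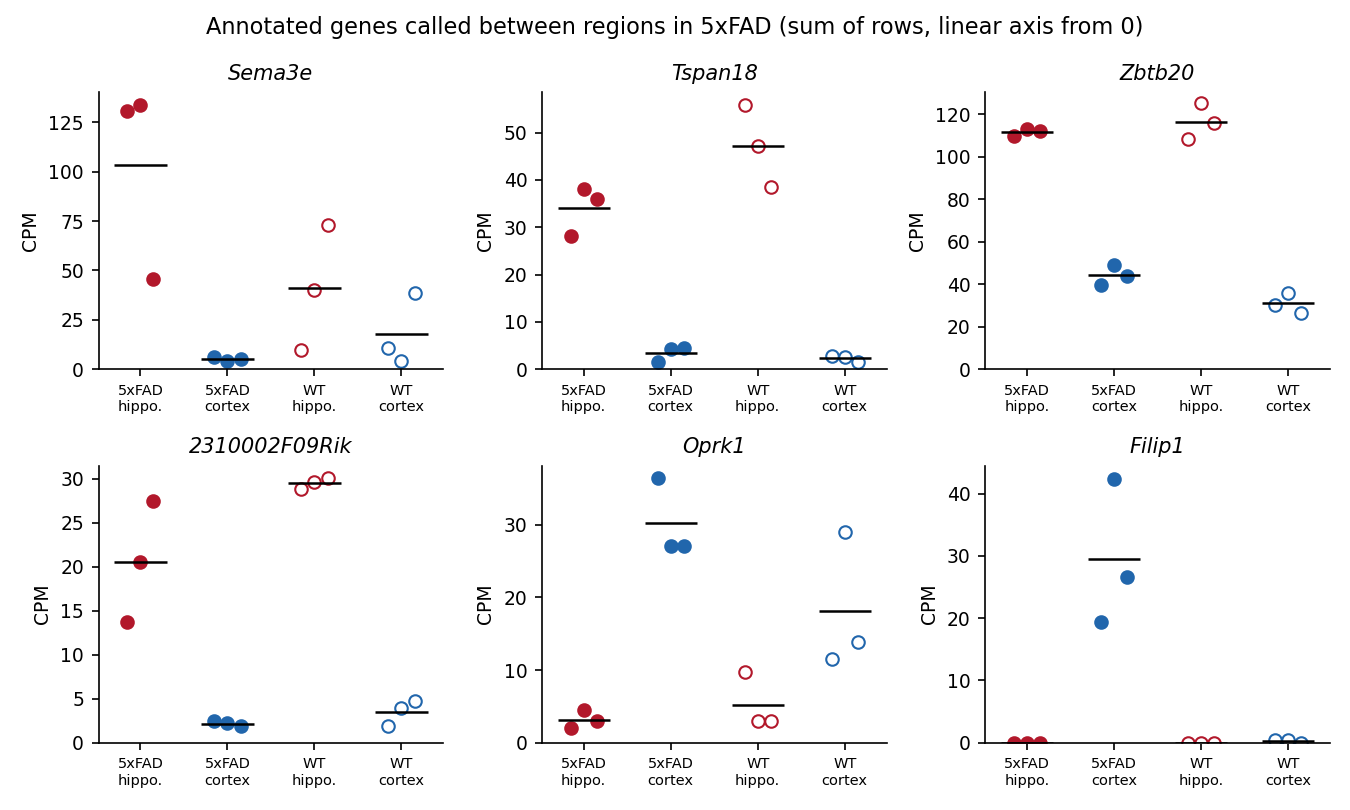
CPM of the 6 annotated genes called between hippocampus and cortex in 5 × FAD mice, one point per library (filled, 5 × FAD; open, WT; red, hippocampus; blue, cortex) on linear axes from 0, with the group mean as a bar. The 5 × FAD regions do not overlap in any panel, while the WT regions overlap for Sema3e and lie near 0 for Filip1.

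Markers of 2 of 3 neighbouring tissues moved with the regions, although no member was called by edgeR, and their part in the called differences was not tested. Of 9 striatal neuron genes tested, 5 were higher in the cortex and 0 in the hippocampus at an unadjusted edgeR p under 0.05. The shares of all sums were 6.41% and 6.22%. At an adjusted p under 0.05, edgeR called 0 of the 9 and DESeq2 called 3 higher in the cortex. The median log2 fold change of the list was -1.40 against 0.015 over all sums. Six3os1, Isl1, Meis2 and Strip2 did not pass the unadjusted threshold (edgeR p from 0.313 to 0.693). Ppp1r1b, the dopamine-regulated phosphatase inhibitor DARPP-32, had 206, 416 and 656 counts in the hippocampus and 2225, 1774 and 1996 in the cortex. Drd1, a dopamine receptor, had 9, 4 and 6 against 35, 18 and 42. The summed level of the striatal list was 233 to 602 CPM in the hippocampus and 763 to 960 in the cortex. Ppp1r1b was the largest part of it in every cortex library, and Meis2 the largest part of the highest hippocampus value. The peptide precursor Tac1 had at most 0 and 3 counts. Of 4 choroid plexus genes tested, 3 were higher in the hippocampus and 0 in the cortex at an unadjusted edgeR p under 0.05. The shares of all sums were 6.22% and 6.41%. None of the 4 was called by edgeR and 2 were called by DESeq2. The summed level of the 4 was 42.9 to 166 CPM in the hippocampus and 6.89 to 38.6 in the cortex. Kl (klotho) had 27, 141 and 190 counts against 8, 6 and 47, so the groups overlapped, and the folate receptor Folr1 was at 0 in all 6 libraries. Of 11 thalamic and habenular genes tested, 1 was higher in the hippocampus and 0 in the cortex at an unadjusted edgeR p under 0.05. The shares of all sums were 6.22% and 6.41%. None of the 11 separated the regions completely, and their median log2 fold change was -0.17. In bulk tissue, fewer cells of a type and less RNA per cell cannot be told apart.

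The regional labels were checked against neuronal markers. Of 35 hippocampal granule and pyramidal cell genes, 20 were in the table and 13 had enough counts to test. Zbtb20 was called, and 4 of the 13 were higher in the hippocampus at an unadjusted edgeR p under 0.05 against 0 in the cortex, beside 6.22% and 6.41% of all sums. Glis3, a zinc finger factor, had 54, 54 and 15 counts against 9, 1 and 8, and Stxbp6, a syntaxin-binding protein, had 100, 81 and 52 against 33, 28 and 39. Neither passed the adjusted threshold (edgeR adjusted p = 0.183 and 0.177). In WT mice Stxbp6 overlapped between the regions and Glis3 did not. The median log2 fold change of the 13 was 0.21 in 5 × FAD mice, against 0.015 over all sums. In WT mice the median of the list was -0.02. Calb1, the calcium buffer calbindin, had 31, 35 and 54 counts against 35, 25 and 24, with overlapping groups. Prox1 and C1ql2 were not analysed here.

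Of 16 cortical layer and projection neuron genes tested, 4 were higher in the cortex and 1 in the hippocampus at an unadjusted edgeR p under 0.05. The shares of all sums were 6.41% and 6.22%. The median log2 fold change of the 16 was -0.33. None of the 16 was called by edgeR, DESeq2 called 1 higher in each region, and the fit of all 12 libraries called 1 higher in the hippocampus. Rorb, the nuclear receptor of layer 4 neurons, had 17, 27 and 23 counts in the hippocampus and 60, 43 and 52 in the cortex. Foxp2, a factor of deep-layer neurons, had 64, 11 and 41 against 141, 118 and 194. Both separated the regions completely, whereas Lamp5 and Mef2c overlapped. Crym, a thyroid hormone binding protein, went the other way with 141, 212 and 247 counts in the hippocampus and 78, 103 and 94 in the cortex. In all, 3 members separated completely with the cortex higher and 2, Crym and Lmo4, with the hippocampus higher. The shares of all sums were 9.84% and 9.46%. Fezf2 and Bcl11b were not analysed here.

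No member of the glial, vascular and interneuron lists was called by edgeR. At an unadjusted p under 0.05 the cortex was higher in 2 of 11 oligodendrocyte genes, 1 of 10 astrocyte genes, 1 of 10 microglia genes, 1 of 9 vascular and meningeal genes and 1 of 13 interneuron genes, and the hippocampus was higher in 0 of each, beside 6.41% and 6.22% of all sums. Every cortex library was above every hippocampus library in 4 of the 11 oligodendrocyte genes and 3 of the 9 vascular and meningeal genes, beside 9.84% of all sums. The interneuron gene was Reln, the secreted glycoprotein reelin, at 973, 905 and 797 counts in the hippocampus and 2185, 1394 and 2019 in the cortex (log2 fold change -1.02, SE 0.18, edgeR adjusted p = 0.0784), and the fit of all 12 libraries and DESeq2 each called 1 interneuron gene. Trem2, the microglial receptor, did not follow region. It had 714, 809 and 164 counts in the hippocampus and 1046, 688 and 87 in the cortex, lowest in library 3 of each region. Gad1, the GABA-synthesizing enzyme, ranged from 76 to 9574 counts within the hippocampus and from 144 to 6848 within the cortex.

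**Figure D2:**
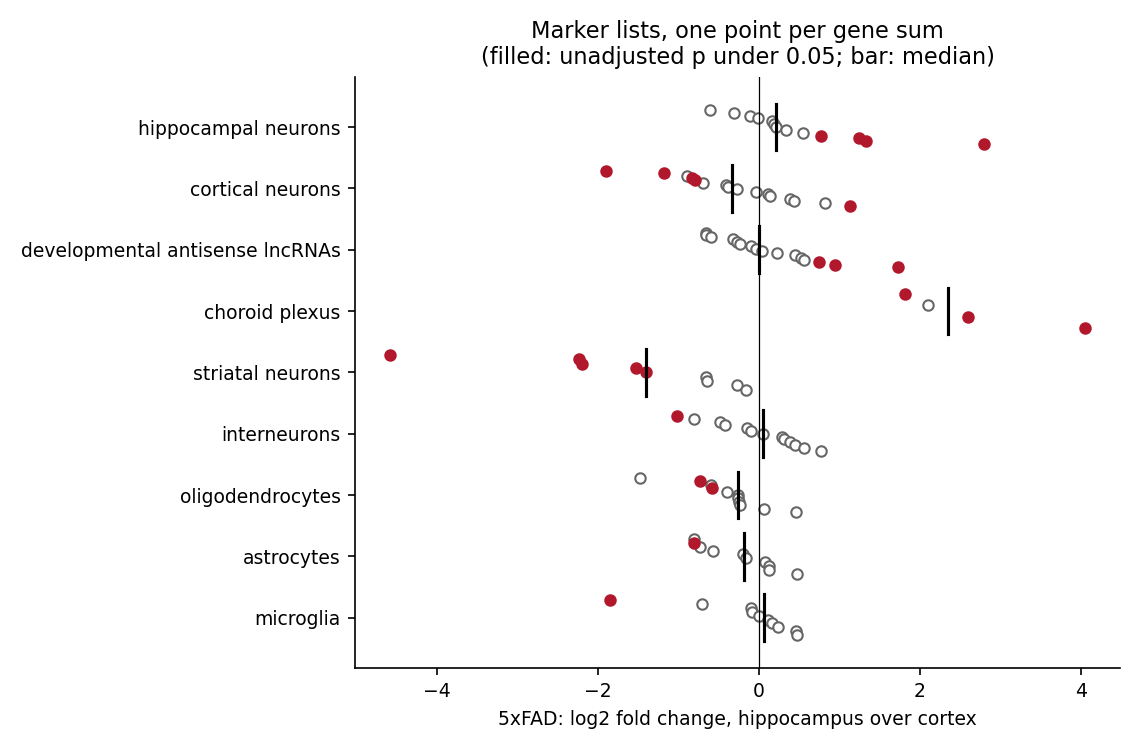
Log2 fold change (hippocampus over cortex, 5 × FAD) of each tested member of 9 marker lists, one point per gene sum, filled where the unadjusted edgeR p was under 0.05, with the list median as a bar. Striatal genes lie to the left and choroid plexus genes to the right, with medians of -1.40 and 2.35, while the glial lists have medians from -0.26 to 0.06.

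Of 1731 non-coding genes tested, 128 (7.39%) lay higher in every hippocampus library and 266 (15.37%) higher in every cortex library, and their median log2 fold change was -0.12. For 7550 protein-coding genes the shares were 8.81% and 7.39% and the median was 0.04. The tilt toward the cortex was seen in lincRNAs (8.96% and 18.24% of 603) and in antisense genes (5.86% and 13.02% of 461). Assembled loci, a separate class of 1739 sums, showed little tilt, at 14.49% and 15.12% with a median of 0.022. With size-factor or library-size scaling the median of non-coding genes was -0.12 and -0.14. In WT mice, 10.95% of the non-coding genes lay higher in every hippocampus library and 15.86% higher in every cortex library. Protein-coding genes also tilted toward the cortex there, at 9.31% and 11.41%. Assembled loci tilted toward the hippocampus in WT mice, at 27.57% and 14.34%. No test was made of the difference between classes, and the non-coding genes had lower levels, with a median of 8.29 CPM against 23.3 CPM for protein-coding genes.

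Beyond 2310002F09Rik, the non-coding genes with the smallest p-values in each direction were listed after their values were seen, and none passed the adjusted threshold in edgeR (adjusted p from 0.0638 to 0.0908). The lincRNA gene 6330420H09Rik (chr7:135853682-135855710, plus strand) had 21, 56 and 63 counts in the hippocampus and 2, 0 and 2 in the cortex. The regions were far apart, at 11.6 ± 5.54 and 0.310 ± 0.269 CPM, and the WT counts were 108, 84 and 93 against 2, 4 and 0. Gm43166, a sense-intronic gene, had 112, 198 and 205 counts against 58, 49 and 56. Sap30bpos, on the strand opposite Sap30bp, had 10, 24 and 28 counts against 0 in all 3 cortex libraries, at least 6.18-fold higher in the hippocampus. DESeq2 called all 3, with adjusted p-values of 1.4e-05, 0.00017 and 0.00027.

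On the cortical side, the lincRNA gene Gm15631 had 40, 57 and 56 counts in the hippocampus and 133, 151 and 161 in the cortex (12.8 ± 2.13 and 36.7 ± 5.64 CPM). Lrp8os2, which lies opposite the gene of the reelin receptor Lrp8, had 8, 14 and 16 counts against 53, 48 and 101. Ptprv had 15, 19 and 22 counts against 148, 126 and 770, so its cortical mean was set largely by library 3. Gm39043 had 0 counts in the hippocampus and 20, 18 and 70 in the cortex, at least 11.2-fold higher in the cortex, with WT counts of 7, 2 and 0 against 14, 17 and 0. These genes separated the regions in 5 × FAD mice without passing the adjusted edgeR threshold.

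LncRNAs beside developmental regulators were mixed. Of 16 tested, 3 were higher in the hippocampus and 0 in the cortex at an unadjusted edgeR p under 0.05, beside 6.22% and 6.41% of all sums, with a median log2 fold change of 0.00, and none was called by edgeR while DESeq2 and the fit of all 12 libraries each called 2. Prox1os, opposite the granule cell factor gene Prox1, had 97, 71 and 66 counts in the hippocampus and 16, 20 and 36 in the cortex (log2 fold change 1.73, SE 0.37, edgeR adjusted p = 0.122). Emx2os had 194, 230 and 250 counts against 154, 103 and 101 (log2 fold change 0.95, SE 0.22, edgeR adjusted p = 0.162). Sox1ot, which overlaps Sox1, had 904, 953 and 1174 against 591, 508 and 757. For these 3 genes and Dlx1as every hippocampus library was above every cortex library in CPM. That is 4 of the 16, with 0 in the reverse direction, beside 9.46% and 9.84% of all sums. Six3os1, Dlx6os1, Sox2ot and Pantr1 overlapped between the regions.

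Of 24 members of the neuronal and nuclear lncRNA list tested, 2 were higher in the hippocampus and 4 in the cortex at an unadjusted edgeR p under 0.05. The shares of all sums were 6.22% and 6.41%. No list member was called by edgeR, while DESeq2 and the fit of all 12 libraries each called 2 higher in the cortex. The pair higher in the hippocampus was Mirt1, at 36, 86 and 49 counts against 37, 17 and 16, and Epb41l4aos, at 119, 75 and 93 against 51, 44 and 56. The raw counts of Mirt1 overlapped, but in CPM both genes separated the regions completely. In CPM, 2 of the 24 separated with the hippocampus higher and 4 with the cortex higher, beside 9.46% and 9.84% of all sums. Gm12371 had 6, 9 and 15 counts in the hippocampus and 50, 30 and 43 in the cortex (log2 fold change -1.98, SE 0.41, edgeR adjusted p = 0.108). The antisense gene Gm13629 had 33, 42 and 52 counts against 96, 83 and 185. Mir124-2hg, host of a neuronal microRNA, had 1297, 814 and 658 against 1704, 1334 and 1952. The last of the 4, Ptprd, is a protein-coding gene, so its value is a sum of non-coding isoforms (log2 fold change -0.65, SE 0.21). The abundant nuclear RNAs did not separate. Malat1 held 372699, 358134 and 309920 counts in the hippocampus and 345850, 284227 and 330349 in the cortex, and Neat1 held 3411, 4654 and 3974 against 4223, 3284 and 3326. Of 12 members of the imprinted list tested, 0 passed an unadjusted p under 0.05 in edgeR and 0 were called by DESeq2. Every cortex library was above every hippocampus library in 3 of the 12, Kcnq1ot1, Peg13 and the protein-coding gene Mest. The reverse held in 0, and the shares of all sums were 9.84% and 9.46%. Meg3 overlapped, with 48305, 55178 and 79359 counts against 77582, 57137 and 79408.

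**Figure D3:**
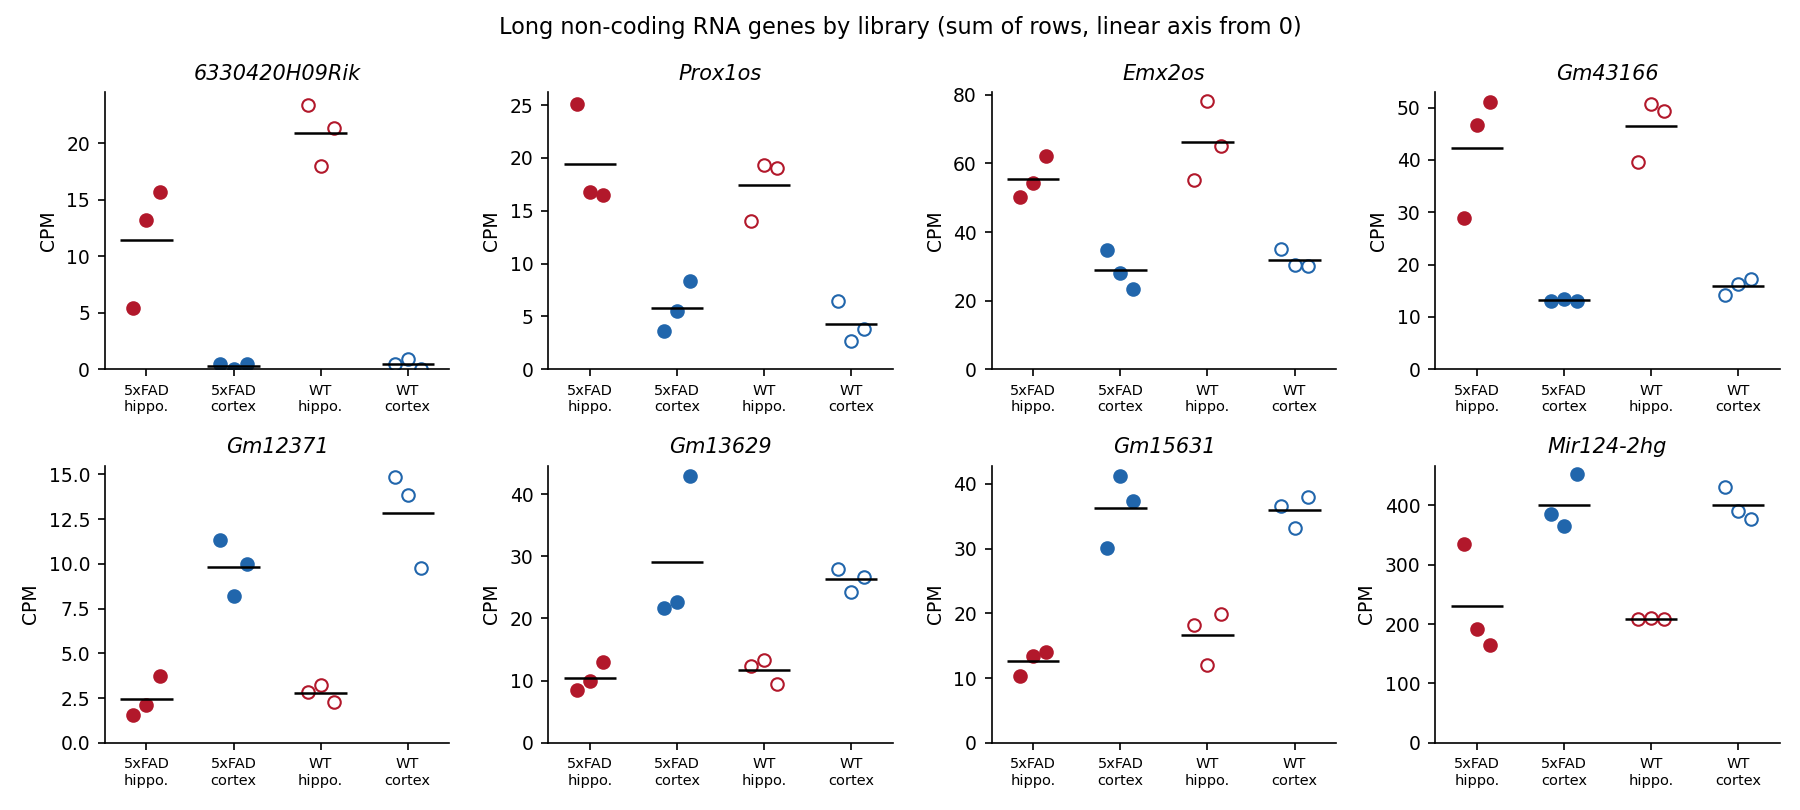
CPM of 8 lncRNA genes, one point per library (filled, 5 × FAD; open, WT; red, hippocampus; blue, cortex) on linear axes from 0, with the group mean as a bar. The upper row is higher in the hippocampus and the lower row in the cortex in every 5 × FAD library, and the WT libraries show the same order.

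Assembled loci made up 16 of the 22 calls, and 8 of them carried neighbouring numbers. The table gives no positions for assembled loci, so their place in the genome and any annotated neighbour are not known here. A window was drawn 5 numbers beyond the first and last of these called loci, so the 8 that set it lie within it. Between locus numbers 16062 and 16089, 20 loci were tested, and in all 20 every cortex library was above every hippocampus library. Of all assembled loci tested, 15.12% separated in this direction. The log2 fold changes of the 20 ran from -2.35 to -1.31 with a median of -1.71. MSTRG.16074 had 97, 104 and 122 counts in the hippocampus and 451, 421 and 454 in the cortex, and MSTRG.16080 had 416, 488 and 479 against 1832, 1610 and 1617. Whether the loci share reads or a transcript was not tested, so the 20 are not counted as independent differences. In WT mice all 20 had the same direction and 18 were called, with a median of -1.40.

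Loci higher in the hippocampus also came in runs. MSTRG.2545 had 1371, 1776 and 1920 counts in the hippocampus and 272, 185 and 418 in the cortex, and MSTRG.2546 had 550, 881 and 619 against 77, 61 and 154 (log2 fold changes 2.58 and 2.85). MSTRG.13392 had 887, 1210 and 1210 counts against 348, 306 and 355. Of the 8 loci tested from number 13383 to 13397, 6 separated the regions in this direction, beside 14.49% of all assembled loci tested. This window was drawn in the same way around 3 called loci, which lie within it. MSTRG.4834 gave the lowest p-value of all sums (edgeR adjusted p = 0.0243), with 33, 32 and 24 counts in the hippocampus and 422, 593 and 828 in the cortex. In WT mice it had 286, 37 and 29 counts against 229, 780 and 123, so that the WT regions overlapped.

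**Figure D4:**
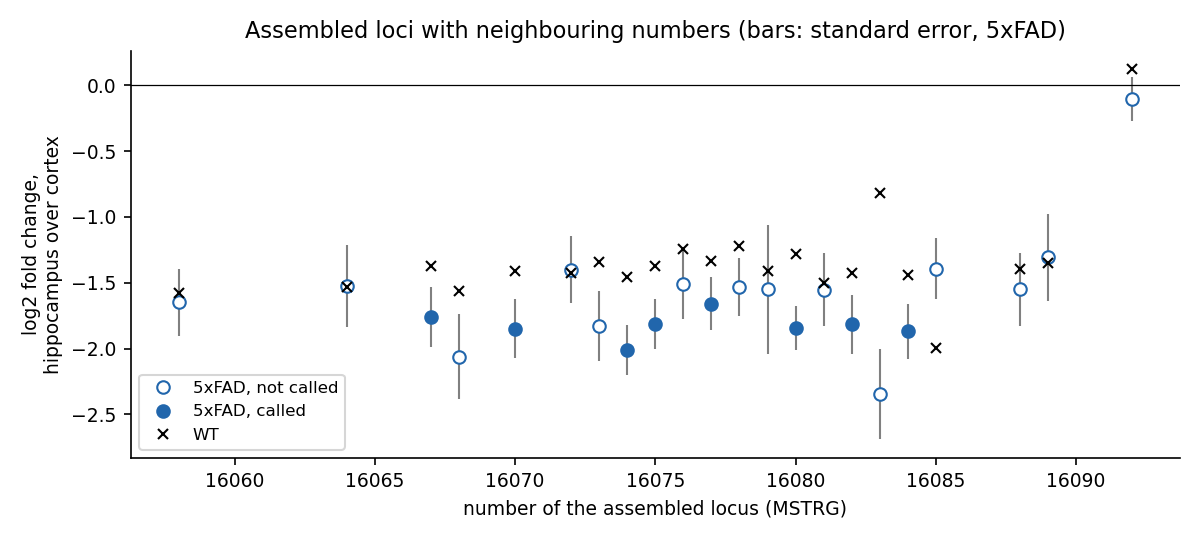
Log2 fold change (hippocampus over cortex) of assembled loci by locus number, with 5 × FAD values as circles (filled where called, bars showing 1 SE) and WT values as crosses. All 20 loci from 16062 to 16089 lie below 0 in both genotypes. Outside this window, locus 16058 also lies below 0 (-1.65 in 5 × FAD, -1.58 in WT), while locus 16092 lies near 0.

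Single transcripts were tested as well. Of 21420 rows, 4 (0.0187%) were called by edgeR and 369 by DESeq2, and 3671 rows (17.1%) did not overlap between the regions in either direction. Of those 3671, the sum of the same gene or locus also separated in the same direction in 2183 and in the opposite direction in 43. In 1445 the sum overlapped or was not tested. Where a gene or locus has a single row, the row is its own sum and agreement is fixed in advance. Such rows were not taken out, so the 2183 do not measure how well rows and sums agree. Of 4833 genes or loci with at least 2 rows tested, 120 (2.48%) held rows that separated in opposite directions. Sfswap, a splicing regulator, was one of these, with a retained intron transcript at 205, 239 and 179 counts in the hippocampus against 134, 78 and 104, and a processed transcript at 0, 0 and 0 against 14, 14 and 11.

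The called rows included transcripts that were on in one region and off in the other. An Auts2 processed transcript of 18 exons (chr5:131437805-132542657, minus strand) had 0 counts in all 3 hippocampus libraries and 1227, 922 and 1447 in the cortex. The sum over all Auts2 rows did not follow it, at 2779, 2059 and 2372 counts against 2664, 2398 and 3240 (log2 fold change -0.17, edgeR adjusted p = 0.782). In WT mice the same transcript had 1706, 1473 and 1494 counts in the hippocampus and 1202, 0 and 0 in the cortex. A retained intron transcript of Rpl9, a ribosomal protein gene, had 48, 65 and 44 counts in the hippocampus and 1, 1 and 1 in the cortex, against 1, 1 and 67 and 1, 64 and 31 in WT. Most rows of this kind did not follow region. A total of 329 rows reached 100 counts or more in part of the 5 × FAD libraries with no more than 3 counts elsewhere, and 2 of them were on in the hippocampus alone, 3 in the cortex alone and 324 divided the libraries in another way.

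The same contrast in WT mice shared no library with the 5 × FAD one. There, 401 of 11146 sums (3.6%) were called, and the higher region was the hippocampus for 218 and the cortex for 183. Of the 22 sums called in 5 × FAD, 21 were tested in WT, all 21 had the same direction and 18 were called. That is 81.82% of the 5 × FAD calls and 4.49% of the WT calls. The 21 include the runs of neighbouring assembled loci, so they are not counted as independent differences. Of 390 sums called in WT and tested in 5 × FAD, 369 (94.62%) had the same direction in 5 × FAD, against 60.05% of all sums tested in both, and 252 had an unadjusted p under 0.05 there. Their median absolute log2 fold change was 0.92 in 5 × FAD and 1.31 in WT, where they had been selected. Over 10772 sums the log2 fold changes of the genotypes correlated with r = 0.41 across genes, which are not independent replicates.

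**Figure D5:**
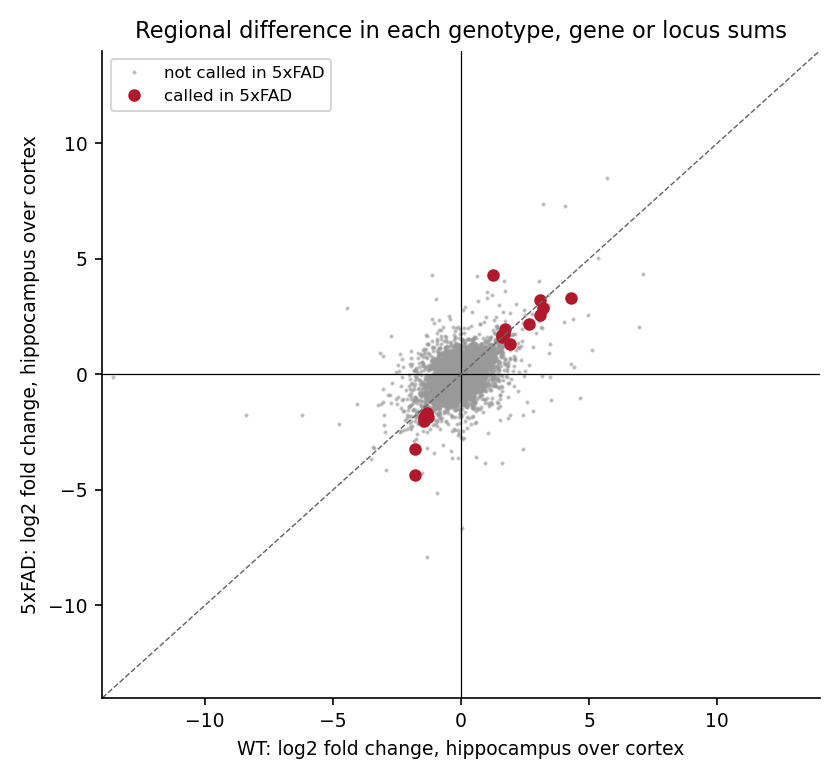
Log2 fold change (hippocampus over cortex) of 10772 gene or locus sums in WT (x axis) and 5 × FAD mice (y axis), with sums called in 5 × FAD in red and the line of equality dashed. All 21 red points lie in the quadrants where both genotypes have the same direction.

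Whether the regional difference itself differed between the genotypes was tested by an interaction term over all 12 libraries. At an adjusted p under 0.05 edgeR called 0 of 11805 sums (0.0%) and DESeq2 called 19, and at an unadjusted p under 0.05 edgeR gave 831 (7.04%). The smallest adjusted p in edgeR was 0.622. Of the 22 sums called in 5 × FAD, 4 had an unadjusted interaction p under 0.05. Sema3e was one (edgeR adjusted p = 0.649), with WT counts of 45, 186 and 319 in the hippocampus and 44, 18 and 131 in the cortex. Zbtb20 was another (edgeR adjusted p = 0.649), its log2 fold change being 1.33 in 5 × FAD and 1.91 in WT. By their Xist and Y-linked counts 2 of the 3 5 × FAD libraries of each region were female and all WT libraries male, so genotype and sex were partly confounded, and the part of sex in this comparison was not tested.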

How the data were processed

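Ribosomal RNA was removed from total RNA of both brain regions of 5 × FAD and WT mice before stranded paired-end sequencing. The authors deposited raw counts per transcript that are not normalized. The submitters' processing notes name Trimmomatic 0.36 and edgeR, and the aligner, counting program and build are not given in the sources used here. Rows were matched to GENCODE M21 (GRCm38), 225 Ensembl rows were unmatched, and 2370 rows on X or Y were dropped. Counts were summed per gene or assembled locus, filtered (filterByExpr), scaled (TMM) and tested with edgeR 4.0.16 (glmQLFit, glmQLFTest) in R 4.3.3 over the 6 libraries of a genotype, or all 12 for the interaction. DESeq2 1.42.0 was an alternative. A feature was called at a Benjamini-Hochberg adjusted p under 0.05. Named by rule were called sums whose regions did not overlap, at a mean of at least 1 CPM, by the largest log2 fold change in each direction. List members and other genes are named as such. The members and gene lists were chosen with earlier results of these data known. On simulated counts for the 5 × FAD contrast (10865 sums), edgeR recovered 10.6% of changes of 1 on the log2 scale and 80.4% of changes of 2. The simulation gave all sums the same spread and made the libraries independent, so recovery in the real data may differ. Replicates of a group differed by more than counting noise (chi-square per degree of freedom 20.72 to 31.61 in 5 × FAD). Floors of 3 counts cover counting error only. P-values measure the spread between libraries and treat the regions of a mouse as independent. Some items are not reported here.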

Additional observations from a re-analysis of the deposited data

How the results depend on the processing

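The 22 sums called in 5 × FAD mice had the same direction under every alternative that could test them, while their number past the threshold moved. DESeq2 called 337 sums, the fit of all 12 libraries 265 and a filter of at least 10 counts in every library 39, whereas leaving out assembled rows gave 0. Leaving out 1 library at a time gave 0 to 8. For single transcripts, where 4 were called, DESeq2 gave 369, the fit of all 12 libraries 160, at least 10 counts in every library 28, no filter 0 and no assembled rows 2, and leaving out 1 library gave 0 to 19 (19 without hippocampus library 3). The interaction, with 0 calls, gave 19 in DESeq2 and 0 to 4 with 1 library left out. In WT mice the 401 calls became 756 in DESeq2 and 116 to 303 with 1 library left out. The cause of these shifts was not tested.

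The regions share mice and library numbers, and whether a number marks 1 mouse is not stated. The deviations of same-numbered 5 × FAD libraries correlated at 0.055, 0.091 and 0.238 across 11126 sums, and number 3 was the one with Y-linked counts in both regions. Whether numbers 1 and 2 mark the same mouse in both regions is not known here. In 5 × FAD, library 2 of the hippocampus correlated more with cortex library 1 (0.108) than with its own number. With a replicate block, 0 sums and 0 transcripts were called in 5 × FAD, 5 sums in WT and 0 in the interaction. Chosen after seeing the data, leaving out both libraries numbered 3 gave 3 sums, none of them among the 22, and 0 transcripts, and robust estimation with the replicate block gave 0 and 0. Depth limits genes of a few counts, where 3 counts were 0.692 to 0.834 CPM.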
